A study of Homo sapiens with 18 samples.

Results

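Cells kept without riboflavin for 48 h carried 3.57 to 7.6 times the signal of 3 aldo-keto reductase transcripts (AKR1C3, AKR1C1 and AKR1C2) and 0.221 and 0.229 times that of albumin and alpha-fetoprotein, each signal with 16 added. The response was read from 6 of the 18 arrays of the series, namely the 3 arrays of riboflavin-deficient cells at 48 h and the 3 arrays of untreated control cells at 48 h, chosen by their titles. All arrays carried RNA of Caco-2, an established line of human colon epithelial cells from a carcinoma. Per the labels, cells grew in DMEM or in DMEM made without riboflavin, with 10% foetal calf serum that was dialysed for some cultures. Which serum each array's cells received is not given, so a change of serum and the lack of the vitamin cannot be told apart. The arrays form 3 sets by their running numbers, each set with 1 control and 1 depleted array at 24, 48 and 72 h, and all comparisons were made within sets. Whether each set was a culture of its own is not in the labels, so p-values here reflect only the spread between these samples, which may be technical. In RNA of whole cultures, fewer cells of a kind cannot be told apart from less RNA per cell.

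Riboflavin is vitamin B2. Cells take it up through carriers of the SLC52 family, riboflavin kinase (RFK) turns it into FMN, and FAD synthase (FLAD1) turns FMN into FAD. Both are cofactors of the flavoproteins, which carry electrons in the respiratory chain, in the first step of fatty acid oxidation, in oxidative protein folding, in sterol and folate metabolism and in the reduction of glutathione and thioredoxin.

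In depleted cells 70 genes were higher and 30 lower at 48 h, of 12319 genes tested. Those calls come from limma on log2(signal + 16), with the set as a block and an adjusted p under 0.05, and correspond to 0.568% of genes higher and 0.244% lower. Differences below are on that scale, depleted minus control, with their standard error (SE). The scale understates folds of weak signals. A difference of at least 2-fold was reached by 45 of the genes that rose and by 9 of those that fell, while the median over all genes was 0.03. All 100 called genes moved the same way in each of the 3 pairs, and in 97 the depleted and control arrays did not overlap. Over all genes, depleted arrays lay above every control array in 6.65% and below every control array in 4.66%. The share of all genes with 3 pairs in one direction was not counted. The calls rest on these same arrays, so neither count is separate support for them. The largest rises and falls named below were also chosen among genes without overlap. By probe set, 144 rose and 45 fell of 27307. Those calls drew on the spread of all 18 arrays. With the 48 h arrays alone and the same block, limma called 0 probe sets (2867 at an unadjusted p under 0.05, smallest adjusted p 0.344), without the block it called 22, and with all 6 arrays of set 1, 2 or 3 left out it called 2, 26 and 0.

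The pair of set 2 stood apart from the other pairs. Titles of 3 arrays of that set, its controls at 24 and 48 h and its depleted array at 24 h, carry a suffix that the labels do not explain, so at 48 h the control has it and the depleted array does not. The ratio of the 3' to the 5' control probe set for ACTB, a measure of RNA and labelling quality, was 3.03 to 4.62 on those 3 arrays and 1.91 to 2.08 on the other arrays of set 2. At 48 h the ratio was 1.49 and 1.51 (control and depleted) in set 1, 3.03 and 2.01 in set 2, and 1.13 and 1.21 in set 3. Across probe sets the 48 h differences of sets 1 and 3 correlated at r = 0.306, those of sets 1 and 2 at 0.121 and those of sets 2 and 3 at 0.057, as a description over probe sets of shared arrays. The set 2 difference was the largest of the 3 in 24 of the 70 genes that rose and in 23 of the 30 that fell. Over all probe sets the differences of set 2 were also the widest (SD 0.709, against 0.438 in set 1 and 0.487 in set 3). The share of all genes with set 2 largest was not counted. Without the set 2 pair at 48 h, 26 probe sets and 15 genes passed the test, 14 of them among the 100. The sign of the 100 could not change there, since each moved one way in all 3 pairs. Those 14 were AKR1C1, AKR1C2, AKR1C3, S100P, RRAGD, AGR3, CYP1A1, PI3, PTPRR, BTNL9 and HECW2-AS1, which rose, and ALB, AFP and CHI3L1, which fell. Without the 48 h pair of set 1 the test called 35 probe sets, and without that of set 3 it called 19. The part of the RNA quality difference in the results was not tested.

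**Figure D1:**
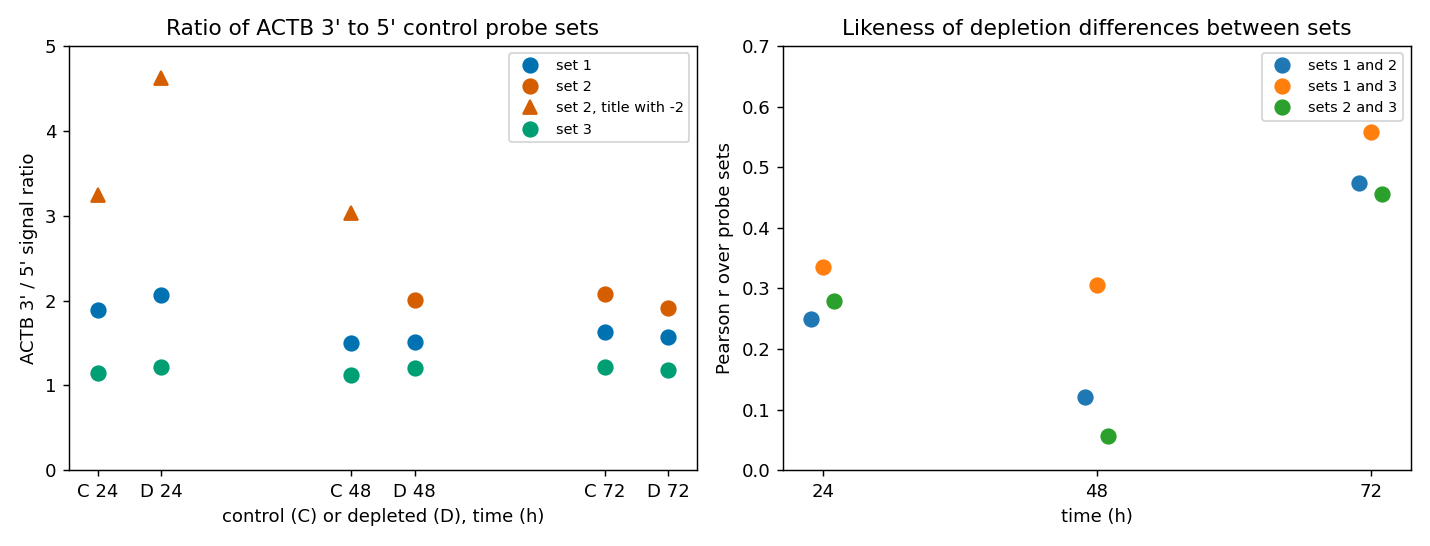
Left, the ratio of 3' to 5' ACTB control probe sets (linear axis from 0) on each of the 18 arrays, by condition, time and set, with triangles for the 3 arrays whose titles carry the suffix. Right, Pearson's r over probe sets between the depletion differences of each pair of sets at each time. The triangles lie between 3.03 and 4.62, above all other arrays, and at 48 h the correlations with set 2 are 0.121 and 0.057.

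The largest rises belonged to aldo-keto reductases of the 1C family, cytosolic enzymes that use NADPH to reduce steroids, prostaglandins and reactive carbonyls. AKR1C2 had signals of 199.6, 281 and 172 in the controls of sets 1, 2 and 3 and of 2277, 1428 and 1577 in the depleted cells. Every depleted array was far above the highest control. AKR1C2 rose by 2.93 (SE 0.20, 7.6-fold, limma adjusted p = 1.37e-05), and by 3.25 without the set 2 pair. AKR1C1 had 335, 518 and 258 in control and 2959.9, 2958 and 2209 in depleted cells, a rise of 2.86 (SE 0.19, limma adjusted p = 1.37e-05). AKR1C3 had 232, 148 and 132 against 934, 512 and 532, a rise of 1.84 (SE 0.15, limma adjusted p = 8.52e-05). None of these 3 genes had overlapping groups.

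AKR1C1, AKR1C2 and AKR1C3 lie on chromosome 10, and their sequences before the start site are shown to compare the promoters of the largest rises. Bases before the start are not in the RNA, so they do not tell how well probes separate the transcripts. The probe sets used for AKR1C1 and AKR1C2 are of the kind that can hybridise to related transcripts, so their values are not independent. The 120 bases before each start (RefSeq, GRCh38.p14) follow, with capitals for bases of AKR1C2 and AKR1C3 that do not align to the same base of AKR1C1. They cover chr10:4963295-4963414 on the plus strand (AKR1C1), chr10:5003858-5003977 on the minus strand (AKR1C2) and chr10:5048661-5048780 on the plus strand (AKR1C3).
AKR1C1: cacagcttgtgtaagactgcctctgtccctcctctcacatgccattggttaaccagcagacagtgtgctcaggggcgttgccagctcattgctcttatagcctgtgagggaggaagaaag
AKR1C2: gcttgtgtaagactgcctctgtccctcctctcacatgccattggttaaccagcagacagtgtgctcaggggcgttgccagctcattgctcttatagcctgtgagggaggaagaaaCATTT
AKR1C3: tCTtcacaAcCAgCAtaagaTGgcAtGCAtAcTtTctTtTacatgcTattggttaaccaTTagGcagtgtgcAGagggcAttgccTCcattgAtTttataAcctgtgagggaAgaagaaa
Over the 250 bases before the start, AKR1C1 and AKR1C2 matched at 96.5% of alignment columns, AKR1C1 and AKR1C3 at 71.4%, and AKR1C2 and AKR1C3 at 69.6%.

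In the list of aldo-keto reductases and aldehyde dehydrogenases, 4 of 17 genes rose (AKR1C1, AKR1C2, AKR1C3 and ALDH1A1), none fell, and the list median was 0.13. ALDH1A1, which oxidises retinaldehyde to retinoic acid, had 512, 255 and 406 in control and 1567, 639 and 1068 in depleted cells. Its 3 depleted arrays were above all controls, and it rose by 1.41 (SE 0.19, limma adjusted p = 0.00459; 0.0539 without the set 2 pair). CES1, a carboxylesterase, had 593, 335 and 641 against 1135, 629.9 and 1237 and rose by 0.91 (SE 0.13). CYP3A5, a cytochrome P450 of drug and steroid oxidation, had 72.6, 102 and 95.4 against 233, 306 and 187 and rose by 1.26 (SE 0.21). CYP1A1, another cytochrome P450 of that kind, named here after its values were seen, had 132, 159 and 142 against 334, 280.1 and 406 and rose by 1.14 (SE 0.18). No array of the controls reached a depleted array for CYP3A5 or CYP1A1, whereas for CES1 the depleted array of set 2 lay below the control of set 3.

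**Figure D2:**
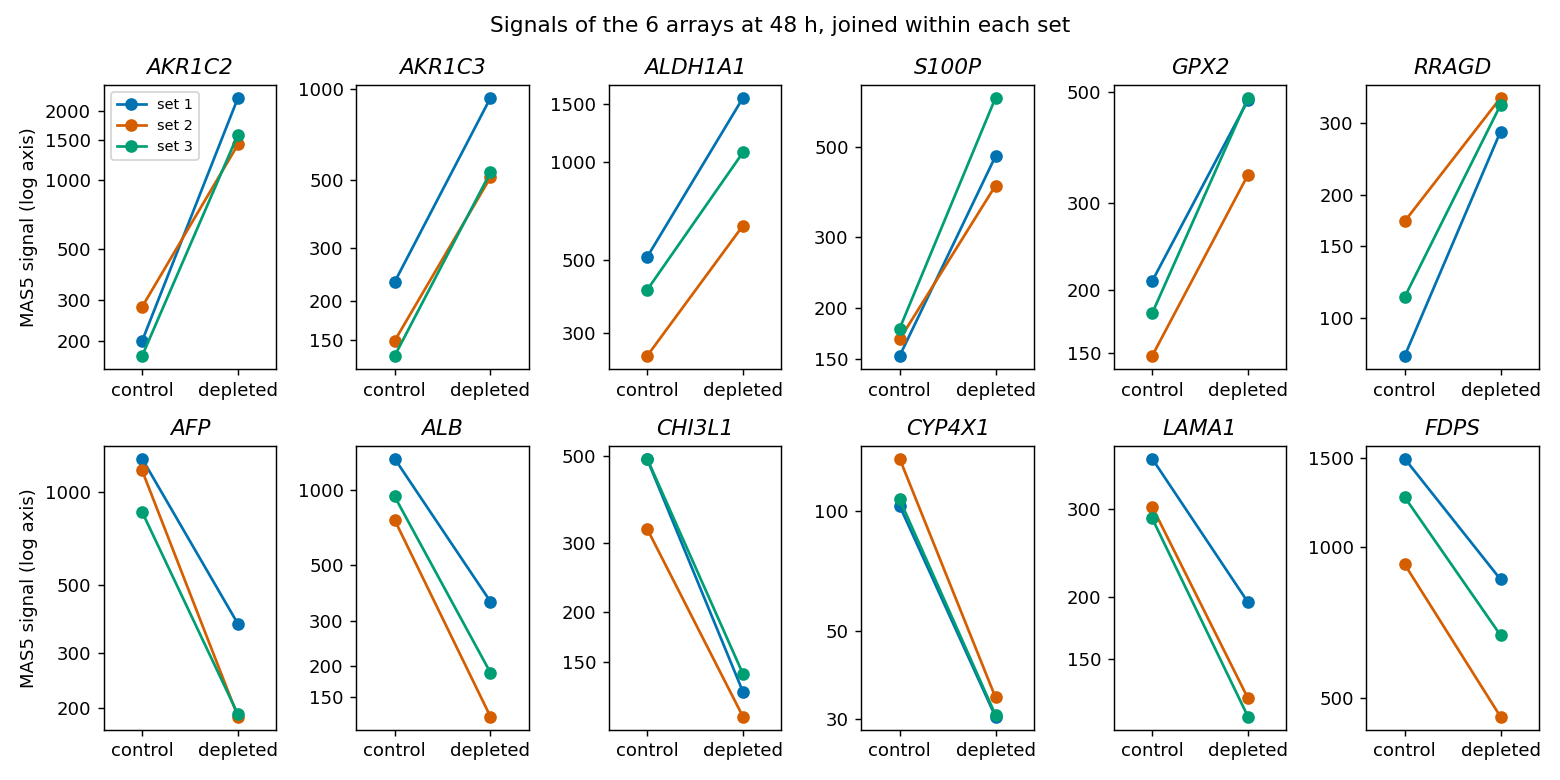
MAS5 signals (logarithmic axes, arbitrary units) of 12 genes on the 6 arrays at 48 h. Points are single arrays, with lines joining control and depleted cells of a set. Within all 3 sets the 6 genes of the upper row (AKR1C2, AKR1C3, ALDH1A1, S100P, GPX2, RRAGD) were higher and the 6 of the lower row (AFP, ALB, CHI3L1, CYP4X1, LAMA1, FDPS) lower in depleted cells.

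Targets of NRF2, the transcription factor that answers oxidative and electrophile stress, were higher in 5 of 41 members tested, lower in none, with a median of 0.31. The 5 that rose were AKR1C1, AKR1C2, AKR1C3, GPX2 and CES1, of which GPX2 is named after its values were seen. GPX2, the glutathione peroxidase of the gut epithelium, had 209, 148 and 179.9 in control and 482, 341 and 487 in depleted cells. It rose by 1.21 (SE 0.18, limma adjusted p = 0.00948; 0.0555 without the set 2 pair). Its depleted arrays all exceeded its controls. TXNRD1, the FAD enzyme that reduces thioredoxin, had 1312, 1098 and 1096 against 2289.9, 1380.2 and 1969, all above the controls. Its difference of 0.65 (SE 0.14) had a limma adjusted p of 0.0522 and did not pass. GCLM, the regulatory subunit of the enzyme that starts glutathione synthesis, differed by 0.31 (SE 0.16, limma adjusted p = 0.377). The same list had 7 members higher at 24 h (median 0.14) and 23 higher with 3 lower at 72 h (median 0.70).

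The antioxidant response element core TGACNNNGC, searched on both strands and free to overlap, was present in 8 of 33 RefSeq promoter windows of NRF2 targets (24.2%), each window running from 250 bases before the start to 50 after it. All 35116 windows of the table held it in 13.35%. It occurred in the windows of 14.3% of the genes that rose at 48 h and of 15.4% of those that fell. Of the NRF2 targets that rose at 48 h only GPX2 had a match, and AKR1C1, AKR1C2 and AKR1C3 had none. Matches of GPX2, TXNRD1 and GCLM are shown, in capitals on the gene's strand, because these genes took different sizes at 48 h beside the same element (GRCh38.p14; chr14:64942834-64942892 minus strand, chr12:104215655-104215713 plus strand and chr1:93909431-93909489 minus strand). TXNRD1 has 2 matches, of which the one lying wholly before the start is printed.
GPX2: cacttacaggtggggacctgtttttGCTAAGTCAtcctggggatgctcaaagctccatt
TXNRD1: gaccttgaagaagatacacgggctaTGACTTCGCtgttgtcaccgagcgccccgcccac
GCLM: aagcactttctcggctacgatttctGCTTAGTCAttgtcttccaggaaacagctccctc
Between 24, 48 and 72 h the differences were 0.51, 1.21 and 2.31 for GPX2, 0.50, 0.65 and 1.78 for TXNRD1, and 0.05, 0.31 and 1.78 for GCLM. A match is a description of the letters and says nothing of binding. Shares of gene groups, here and below, count a single window per gene. Shares of all windows count every window of the table.

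In the list of keratins and epithelial adhesion genes 3 of 31 rose (S100P, SLPI and GPRC5A), none fell, and the median was 0.22. EMP1, also of that list, passed only on its dimmer probe set (1.12, SE 0.23, limma adjusted p = 0.044). S100P, a calcium-binding protein, had 153, 168 and 178 in control and 473, 401 and 659 in depleted cells, with no overlap, and rose by 1.50 (SE 0.17, limma adjusted p = 0.00158). SLPI, a secreted inhibitor of serine proteases, had 61.0, 90.3 and 58.0 against 164, 242 and 278 and rose by 1.50 (SE 0.21). Its lowest depleted array was above its highest control. AGR3, a disulfide isomerase relative of secretory cells, had 324, 345 and 252 against 879, 530.2 and 767, again without overlap, and rose by 1.18 (SE 0.19). The receptor PLAUR, which binds urokinase, had 45.0, 24.4 and 51.3 against 95.3, 111 and 146 and rose by 1.26 (SE 0.26, limma adjusted p = 0.0483). TIMP2, an inhibitor of matrix metalloproteases, rose by 1.05 (SE 0.17). CEACAM6, an adhesion molecule named after its values were seen, had 582, 542 and 407 against 1129.7, 1052 and 1065 and rose by 1.08 (SE 0.15), nearly the same in each depleted array.

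Lysosomal and autophagy genes contributed RRAGD, a Rag GTPase that ties lysosomal amino acid sensing to mTORC1, and GABARAPL1, a protein of the autophagosome membrane. RRAGD had 80.8, 172 and 113 in control and 285, 345 and 331 in depleted cells. All depleted arrays were above the highest control, which was that of set 2. RRAGD rose by 1.34 (SE 0.20, limma adjusted p = 0.00713) and by 1.54 without the set 2 pair. GABARAPL1 had 168, 124 and 147 against 251, 266 and 363, without overlap, and rose by 0.92 (SE 0.16). These were the 2 of 30 list members that rose, none fell, and 24 of the 30 differences were above 0 (median 0.20).

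Among regulators and RNAs, MALAT1, an abundant nuclear long noncoding RNA, had 499, 389 and 432 in control and 1375, 1422 and 1576 in depleted cells. Its groups were far apart, and it rose by 1.70 (SE 0.28, limma adjusted p = 0.0138; 0.111 without the set 2 pair). MALAT1 is read by 12 probe sets, all with positive differences (0.70 to 1.86), of which 3 passed the test. EPB41L4A-AS1, an antisense RNA that hosts a small nucleolar RNA, rose by 0.87 (SE 0.17), and these were the 2 of 11 members of the noncoding RNA list that rose. The list median of -0.05 had the opposite sign. The RNA CCEPR, long and noncoding, had 119, 83.8 and 131 against 282, 227 and 379 and rose by 1.28 (SE 0.16, limma adjusted p = 0.00378). PNRC1, a nuclear receptor coregulator, had 103, 53.7 and 131 against 370.2, 163 and 299, all above the controls, and rose by 1.39 (SE 0.20). KLF4, a transcription factor of differentiated epithelium, had 207, 237 and 185 against 427, 319.7 and 439.9 and rose by 0.86 (SE 0.18). The histone list had 2 of 9 members higher, H2AC6 by 1.12 (SE 0.19) and H2BC12 by 0.67 (SE 0.14), none lower, and a median of 0.67. H2BC5, also of that list, passed only on its dimmer probe set (1.42, SE 0.26, limma adjusted p = 0.0268).

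Weak signals stood behind some of the large rises. XNDC1N had 13.6, 3.7 and 3.5 in control and 62.3, 39.5 and 51.4 in depleted cells, and SETBP1 had 4.1, 1.4 and 5.1 against 41.1, 39.2 and 34.1. Both rose, by 1.56 (SE 0.26) and 1.47 (SE 0.24), from controls under the signal of 19.62 at which probe sets entered the test on average. CPT1A, which commits long-chain fatty acids to mitochondrial oxidation, had 48.0, 24.7 and 11.5 against 92.7, 77.3 and 120.1. It rose by 1.42 (SE 0.25, limma adjusted p = 0.0175), without overlap, while the second CPT1A probe set differed by 0.55 (SE 0.25, limma adjusted p = 0.302). In ALB, BUB1, CYP3A5, EPB41L4A-AS1, GPRC5A, KLF4, LAMB1, NID1, PDGFRA, PI3, PLAUR, PTPRR, STC2 and TIMP2 as well, at least 1 dimmer probe set differed in the same direction and did not pass, and in BTNL9 the dimmer probe sets ranged from -0.46 to 0.57. DDX5, an RNA helicase, rose by 1.12 (SE 0.15) on a probe set with signals of 58.7, 69.5 and 70.0 against 129, 174 and 188. The brighter DDX5 probe set, annotated to several genes, had mean signals of 3678 and 3712 and differed by 0.02 (SE 0.15, limma adjusted p = 0.965).

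The largest falls were in proteins that fetal and adult liver secrete, which Caco-2 cells also make. ALB (albumin) had 1328, 759 and 940.0 in the controls of sets 1, 2 and 3 and 359, 125 and 187 in the depleted cells. AFP (alpha-fetoprotein) had 1284, 1176 and 863 against 374, 187 and 191. In both genes every depleted array was far below the lowest control. ALB fell by 2.18 (SE 0.24, limma adjusted p = 0.00123) and AFP fell by 2.13 (SE 0.24, limma adjusted p = 0.00123). Without the set 2 pair the falls were -2.04 and -1.91, both with a limma adjusted p of 0.0367. FGG, the gamma chain of fibrinogen, had 2986, 2879 and 2501 against 2091, 943 and 1322 and fell by 1.01 (SE 0.21, limma adjusted p = 0.0424). The set 2 pair gave the widest gap for FGG, and without it the difference was -0.71 with a limma adjusted p of 0.262. FGB, the beta chain, differed by -1.26 on its brightest probe set (SE 0.28, limma adjusted p = 0.0606), which did not pass, while its other probe set passed at -1.03 (SE 0.12, limma adjusted p = 0.00175). Read by brightest probe set, ALB, AFP and FGG were the 3 of 24 list members that fell, none rose, and the list median was -0.06.

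Genes of the extracellular matrix moved in both directions, with 2 of 22 higher (TIMP2 and PLAUR) and 4 lower (MMP1, LAMA1, NID1 and LAMB1), around a median of -0.08. LAMA1, a laminin chain of basement membrane, had 379.9, 304 and 288 in control and 195, 125 and 115 in depleted cells, without overlap, and fell by 1.10 (SE 0.17, limma adjusted p = 0.00855). NID1, which links laminin to collagen IV, had 622, 453 and 508 against 305, 287 and 267 and fell by 0.84 (SE 0.16). LAMB1, another laminin chain, fell by 0.76 (SE 0.15). Its depleted arrays of 1192, 571 and 1288 were all below its controls of 1803, 1295 and 1871, with the lowest in set 2. MMP1, an interstitial collagenase, had 1028, 1173 and 632 against 483, 311 and 341 and fell by 1.26 (SE 0.21, limma adjusted p = 0.0153). FREM2, a matrix protein that joins epithelium to the tissue below, fell by 0.95 (SE 0.16).

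Further falls of more than 2-fold were in CHI3L1, UTS2, CYP4X1 and PDGFRA. CHI3L1, a secreted chitinase-like protein, had 492, 327 and 493 in control and 126, 109 and 139 in depleted cells, with no overlap, and fell by 1.67 (SE 0.20, limma adjusted p = 0.00175). UTS2, which encodes the peptide urotensin 2, had 299, 154 and 104 against 74.1, 34.4 and 38.3 and fell by 1.57 (SE 0.20). CYP4X1, a cytochrome P450 without a settled substrate, fell by 1.45 (SE 0.20) from 103, 136 and 107 to 30.4, 34.0 and 30.7, the 3 depleted arrays being almost equal. PDGFRA, a receptor for platelet-derived growth factor and a marker of fibroblasts, had 738, 897 and 568 against 423, 203 and 291 and fell by 1.26 (SE 0.26, limma adjusted p = 0.0449). Its set 2 pair had the widest gap, and without that pair the difference was -0.85 with a limma adjusted p of 0.221.

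**Figure D3:**
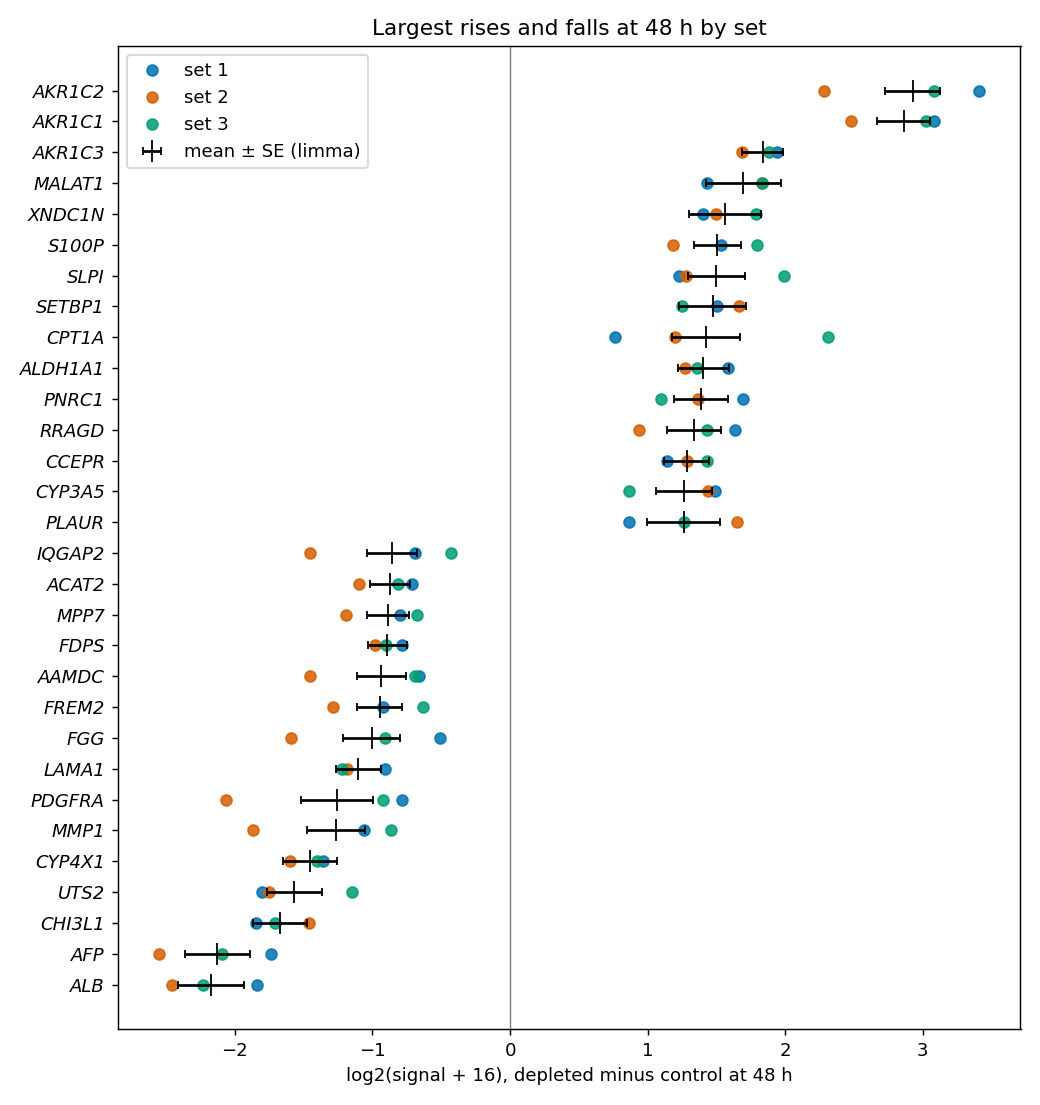
Depleted minus control at 48 h on the log2(signal + 16) scale for the 15 largest rises and 15 largest falls that passed the test with groups that did not overlap. Coloured points are the 3 sets, black marks the mean with its SE from limma. AKR1C2 and AKR1C1 lie farthest to the right at 2.93 and 2.86, and ALB and AFP farthest to the left at -2.18 and -2.13, and many falls have their set 2 point farthest from 0.

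Enzymes of cholesterol synthesis were lower in 2 of 20 members, with 16 of 20 differences below 0 and a median of -0.27. FDPS, which makes farnesyl diphosphate, had 1497, 922 and 1255 in control and 859.8, 458 and 665 in depleted cells. All its depleted arrays were below the lowest control, and it fell by 0.89 (SE 0.14, limma adjusted p = 0.0112; 0.0993 without the set 2 pair). ACAT2, the cytosolic thiolase at the head of the pathway, had 1867, 1914 and 1566 against 1133, 888 and 886 and fell by 0.87 (SE 0.15). The sterol regulatory element TCACNCCAC, sought on both strands, was found in the same windows of 1 of 19 list members (5.3%) and in 1.13% of all windows.

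The genes of riboflavin handling did not pass the test in any of 5 members, and their differences lay between -0.22 and 0.14 (median -0.13). RFK had 201, 366 and 145 in control and 203, 219 and 148 in depleted cells, nearly equal within sets 1 and 3 and lower in set 2, a difference of -0.22 (SE 0.18, limma adjusted p = 0.577). FLAD1 had 159, 146 and 231 against 161, 191 and 189, overlapping groups with a difference of 0.03 (SE 0.14). The carrier SLC52A2 had 174, 182 and 301 against 176, 171 and 239 (-0.13, SE 0.20), and SLC25A32, which brings FAD or folate into mitochondria, had 391, 364 and 450.0 against 342, 350.6 and 356 (-0.19, SE 0.15). SLC52A3, the carrier of the gut's apical membrane, had control signals of 17.6 to 32.1 and depleted signals of 9.1 to 49.1, close to the lowest signals tested.

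Flavoproteins as a class showed no called gene at 48 h. None of 12 acyl-CoA dehydrogenases and electron transfer flavoprotein genes passed (median -0.14, range -0.63 to 0.84). Among 54 other FAD and FMN enzymes none passed, 27 differences were below 0 and 27 above, and the median was -0.02 (range -1.07 to 1.24). TXNRD1 at 0.65 and IYD, an iodotyrosine deiodinase, at 1.24 (SE 0.28, limma adjusted p = 0.0602) were among those nearest to the threshold. Below 0 were CPOX at -0.51 (SE 0.14, limma adjusted p = 0.106) and ACOX2 at -0.66 (SE 0.18, limma adjusted p = 0.115). IYD had 57.7, 51.0 and 50.2 in control and 86.0, 235 and 154 in depleted cells, without overlap and with the widest gap in set 2.

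Mitochondrial and cell division lists had small differences that leaned one way, though the share of all genes below 0 was not counted. In the list of mitosis and spindle genes 2 of 63 fell, none rose, and 57 of the 63 differences were below 0 (median -0.34). NCAPH, a condensin subunit, had 212, 229 and 236 in control and 129.7, 126 and 133 in depleted cells, tight groups far apart, and fell by 0.73 (SE 0.13, limma adjusted p = 0.0216). BUB1, a kinase of the spindle checkpoint, had 542, 604 and 482 against 326, 271 and 338 and fell by 0.77 (SE 0.15, limma adjusted p = 0.0339). Neither passed without the set 2 pair (limma adjusted p = 0.133 and 0.212). None of 59 DNA replication genes passed, though 50 lay below 0 (median -0.26). E2F8, a repressor of that programme, differed by -0.67 (SE 0.14, limma adjusted p = 0.0535). The E2F site TTTGGCGC or TTTCGCGC, counted on both strands, was present in the promoter windows (250 bases before to 50 after the start) of 13 of 50 of these genes (26.0%) and in 1.15% of all windows.

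Summed over their 59 genes, the replication list had signals of 35054 to 37622 in the controls and 27569 to 32356 in the depleted cells, so the groups did not overlap. The mitosis list had sums of 44285 to 49991 and 31300.1 to 41589, again without overlap. Of complex I subunits 0 of 33 passed (30 below 0, median -0.21), and their sums overlapped, at 38469 to 45185 against 32226 to 39949 with controls first. Of complexes II to V 0 of 35 passed (34 below 0, median -0.27), with sums of 94691 to 108562 and 80295 to 86142 that did not overlap. Of mitochondrial ribosomal proteins 0 of 75 passed (64 below 0, median -0.27), with overlapping sums of 48347 to 60420.4 and 37948 to 52116. Of proteasome subunits 0 of 32 passed (31 below 0, median -0.30), with sums of 47979.6 to 53707 and 36683 to 46799 that did not overlap. The cytosolic ribosomal proteins, with 0 of 51, had a median of -0.06. Of the 8 colon epithelial markers, 7 had differences below 0 as well (median -0.15). With the filter at the 75th percentile the median over all probe sets was -0.01, against 0.07 in the reported fit. Over all genes the median was 0.03, and only 0.244% of genes were called lower. Sums without overlap were not particular to these lists. For the TCA cycle too they were lower in depleted cells (15769 to 18853, control 20660 to 23521). They were higher for lysosome and autophagy (21498 to 23832.5, control 20077 to 21402) and for NRF2 targets (48562 to 56153, control 42479 to 48336). Further lists in both directions had sums without overlap.

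Genes of ATF4, the transcription factor of amino acid shortage and the integrated stress response, had 1 of 43 members higher at 48 h, none lower, and a median of 0.25. The member that rose was STC2, a secreted glycoprotein, with 240.3, 135 and 192 in control and 398, 373 and 423 in depleted cells, without overlap (1.04, SE 0.20, limma adjusted p = 0.0333). At 24 h 18 of the 43 were higher (median 0.74), and at 72 h 13 were higher and 6 lower (median 0.13). SLC7A11, the cystine carrier, differed by 0.81 at 48 h on its brightest probe set (SE 0.17, limma adjusted p = 0.051), which did not pass. Of its other probe sets, 1 passed at 0.87 (SE 0.17, limma adjusted p = 0.0371) and the dimmest differed by -0.39 (SE 0.42, limma adjusted p = 0.687). ASNS, asparagine synthetase, had 1399, 873 and 1109 against 1797, 984 and 1236, overlapping groups with a difference of 0.23 (SE 0.14), beside 1.41 at 24 h. The element TGATGNAA, to which ATF4 binds with a C/EBP partner, was found on either strand in such windows of 8 of 36 list members (22.2%) and in 3.62% of all windows. Parts of the windows of ASNS, BCAT1 and ATF3 are shown with the match in capitals because their values at 48 h differed in size and sign (GRCh38.p14; chr7:97872444-97872501 minus strand, chr12:24949117-24949174 minus strand and chr1:212565191-212565248 plus strand).
ASNS: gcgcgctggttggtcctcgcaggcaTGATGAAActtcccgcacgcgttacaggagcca
BCAT1: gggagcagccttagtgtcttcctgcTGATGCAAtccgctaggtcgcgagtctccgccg
ATF3: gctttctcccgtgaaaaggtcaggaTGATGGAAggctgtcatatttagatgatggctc
At 48 h BCAT1, which transaminates branched amino acids, differed by -0.56 (SE 0.12, limma adjusted p = 0.0602) and ATF3, a stress-induced transcription factor, by 0.55 (SE 0.21, limma adjusted p = 0.23).

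Stress, signalling and differentiation lists held few or no calls at 48 h. PMEPA1, which dampens TGF-beta signalling, was the 1 of 20 genes of the TGF-beta list that rose (median 0.10), with 24.5, 10.3 and 30.7 in control and 63.1, 60.2 and 74.4 in depleted cells and a rise of 1.15 (SE 0.21, limma adjusted p = 0.0222). KLF4 was the member called among 24 AP-1 and immediate early genes (median 0.19) and among 13 intestinal and hepatic identity factors (median 0.26). CPT1A was the member called among 21 genes of mitochondrial fatty acid oxidation (median -0.15) and among 13 PPAR targets (median 0.18), and AGR3 the one among 10 goblet cell genes (median -0.27). No member passed among 21 p53 targets (median 0.11), 20 inflammatory genes (0.09), 15 interferon genes (0.20), 17 Wnt targets (0.22), 26 enterocyte genes (0.21) or 11 metallothioneins and zinc genes (0.05). These counts use the brightest probe set of a gene. Dimmer ones passed in the enterocyte gene MUC13 (0.79, limma adjusted p = 0.0175) and the identity factor ELF3 (0.86 and 0.88, limma adjusted p = 0.0417 and 0.0189). So did that of ACSL5 in fatty acid oxidation (0.92, limma adjusted p = 0.0464). Their brightest probe sets differed by 0.97, 0.40 and 0.56. CDKN1A, the CDK inhibitor p21, had 39.7, 35.4 and 43.0 against 75.8, 84.9 and 88.8. Its groups did not overlap, but the difference of 0.84 (SE 0.22) had a limma adjusted p of 0.108. None of 17 heat shock genes (median -0.25), 28 ER chaperones (-0.23), 17 aminoacyl-tRNA synthetases (-0.21), 25 genes of glycolysis and hypoxia (-0.19) or 23 of the TCA cycle (-0.29) was called either.

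**Figure D4:**
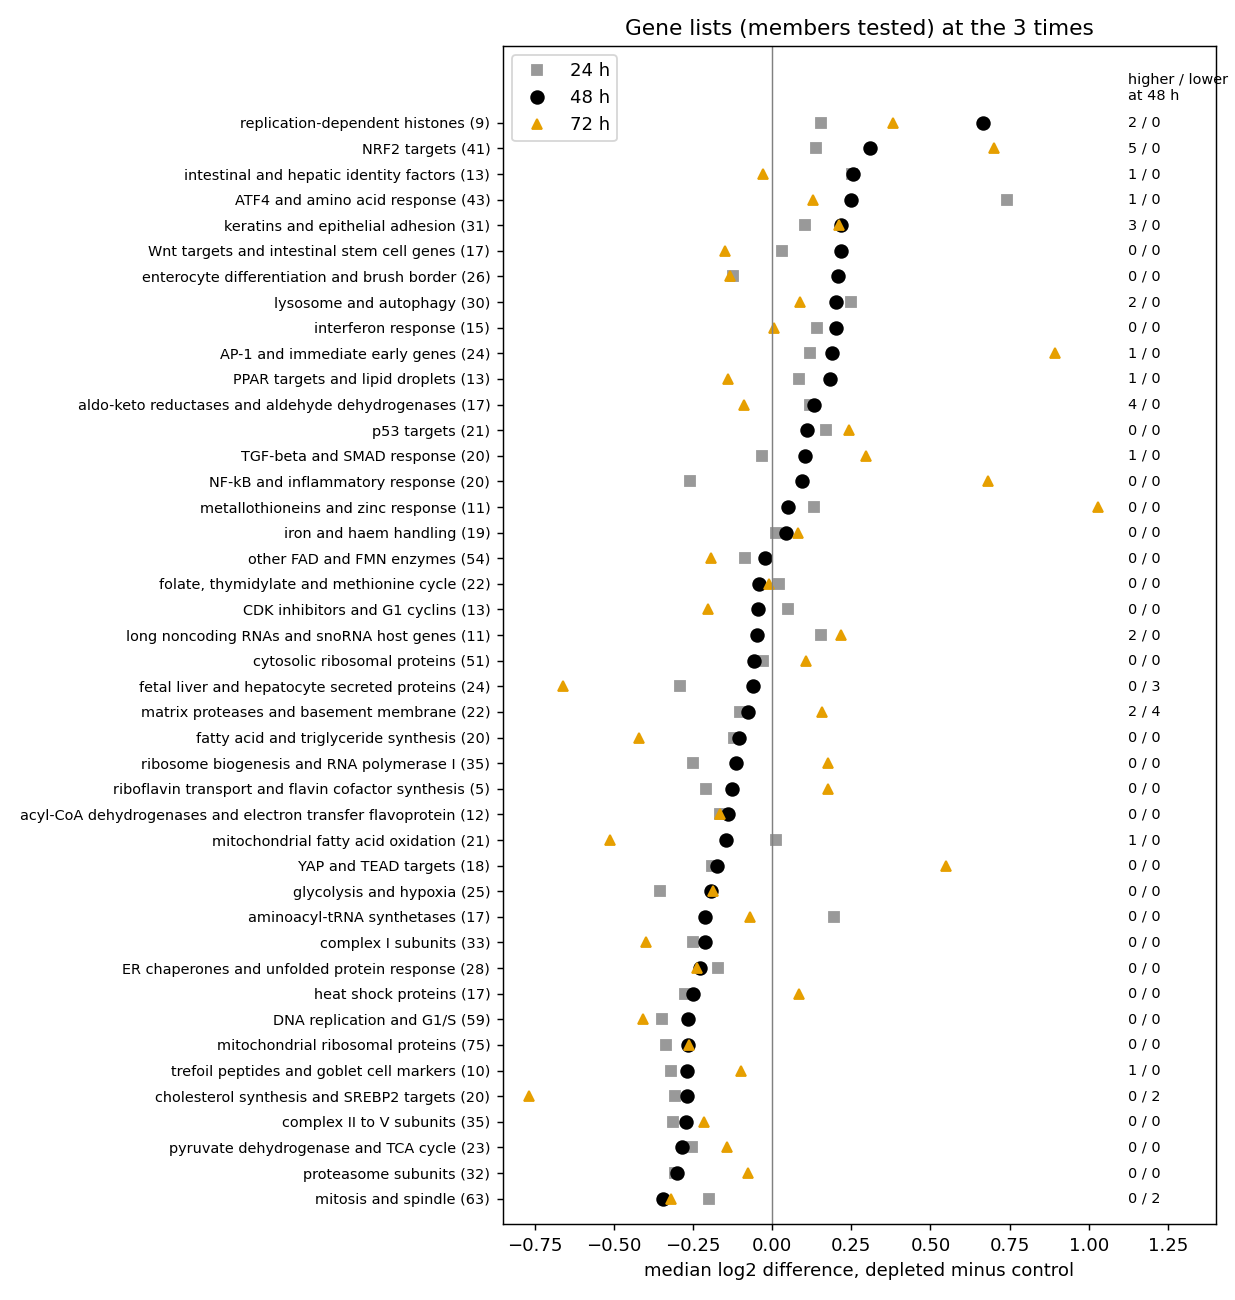
Median log2 difference (depleted minus control) of 43 gene lists at 24 h (grey squares), 48 h (black circles) and 72 h (orange triangles), with the number of members tested in brackets and the number called higher and lower at 48 h at the right. At 48 h the medians run from -0.34 (mitosis and spindle) to 0.67 (histones), a narrower span than that of the metallothioneins (1.03) to cholesterol synthesis (-0.77) at 72 h.

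The cells carried the markers of colon epithelium throughout. On the 6 arrays EPCAM lay at 4845 to 12864, KRT18 at 5406 to 8979 and CDH17 at 1995 to 2621, and 0 of 8 such markers passed the test. CDX2, of the same list, was far weaker at 57.4 to 215. It differed by 0.45 (SE 0.27, limma adjusted p = 0.442), whereas the other 7 lay below 0. Of markers of other cells, 1 of 1 enteroendocrine, 5 of 5 leukocyte and 1 of 1 endothelial genes tested gave no call. In the fibroblast list 1 of 11 changed, PDGFRA. Summed over its members that list reached 3321 to 5657 on control arrays and 3054 to 4126 on depleted arrays, overlapping ranges. Its members COL1A2 at 2.5 to 23.2 and PDGFRB at 4.6 to 23.9 were at or near background, whereas TAGLN at 1286 to 3412, FBLN1 at 215 to 808, COL1A1 at 113 to 459.9, VIM at 153 to 246 and COL3A1 at 120.3 to 183 were not. SPARC differed by 1.36 (SE 0.32, limma adjusted p = 0.0704), with the opposite sign to PDGFRA, and did not pass. The part of such cells in the fall of PDGFRA was not tested.

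Set beside the other times, the 48 h response was the smallest by count. At 24 h 1.98% of genes were higher and 0.982% lower, and at 72 h 6.21% and 8.65%. Of the 70 genes that rose at 48 h, 35 also rose at 24 h (50% of the 70 and 14.3% of the 244 higher at 24 h) and 37 at 72 h (52.9%, and 4.84% of 765). Of the 30 that fell, 13 also fell at 24 h (43.3%, and 10.7% of 121) and 20 at 72 h (66.7%, and 1.88% of 1066). In all, 20 rises and 10 falls were called at each of the 3 times, and 18 rises and 7 falls at neither of the other times. The median of the 70 was 0.80 at 24 h, 1.06 at 48 h and 0.67 at 72 h, and that of the 30 was -0.58, -0.85 and -0.97. Since the 100 genes were chosen at 48 h, a larger size there is no finding. The 48 h value lay between the other 2 in 30 of the 70 and in 15 of the 30.

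Tests of the difference between times called genes between 48 h and 72 h and none between 24 h and 48 h. The limma contrast of 48 h minus 24 h called 0 of 12319 genes (0%), with 2214 probe sets at an unadjusted p under 0.05. Its smallest adjusted p was 0.233, shared by ALDH1L2 (-1.10), C1orf105 (1.50), ASNS (-1.18) and CTH (-1.25), 3 of them enzymes of folate and amino acid metabolism. The contrast of 48 h with the mean of 24 h and 72 h also called 0% of genes in limma, with 2856 probe sets at an unadjusted p under 0.05 and a smallest adjusted p of 0.0516, for LTB4R (1.96), DDX5 (1.31) and RGCC (-1.43). The contrast of 72 h minus 48 h called 321 genes (2.61%), 145 with the higher value at 72 h and 176 with the lower. Of the 70 genes that rose at 48 h, 12 stood lower and 3 higher at 72 h than at 48 h, and 5 of the 70 fell at 72 h.

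LTB4R, a receptor for leukotriene B4, rose by 1.23 at 48 h (SE 0.22, limma adjusted p = 0.0194) and fell by 1.31 at 72 h. Its 48 h signals were low, 6.5, 7.7 and 5.3 in control and 21, 56.4 and 39.0 in depleted cells, without overlap. ASS1, argininosuccinate synthase, named after its values were seen, had 166, 134 and 274 against 372, 376 and 569 and rose by 1.16 (SE 0.15), beside a rise of 1.39 at 24 h and a fall of 0.49 at 72 h (-0.49, limma adjusted p = 0.0471). RGCC, a regulator of the cell cycle, had 613, 374 and 496 against 561, 332 and 627 at 48 h, overlapping groups with a difference of 0.01 (SE 0.16), and rose by 2.76 at 72 h. PTGS2, the inducible cyclooxygenase, had 557, 483 and 229.7 against 419, 384 and 277 (-0.15, SE 0.23) and rose by 2.84 at 72 h. NPPB, a natriuretic peptide, differed by -0.25 at 48 h (SE 0.25) between a fall of 1.39 at 24 h (-1.39, limma adjusted p = 0.0133) and a rise of 3.39 at 72 h. For AKR1C2 the values were 2.76, 2.93 and 3.53 at 24, 48 and 72 h, and for ALB -1.99, -2.18 and -2.36, with no called difference between times.

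**Figure D5:**
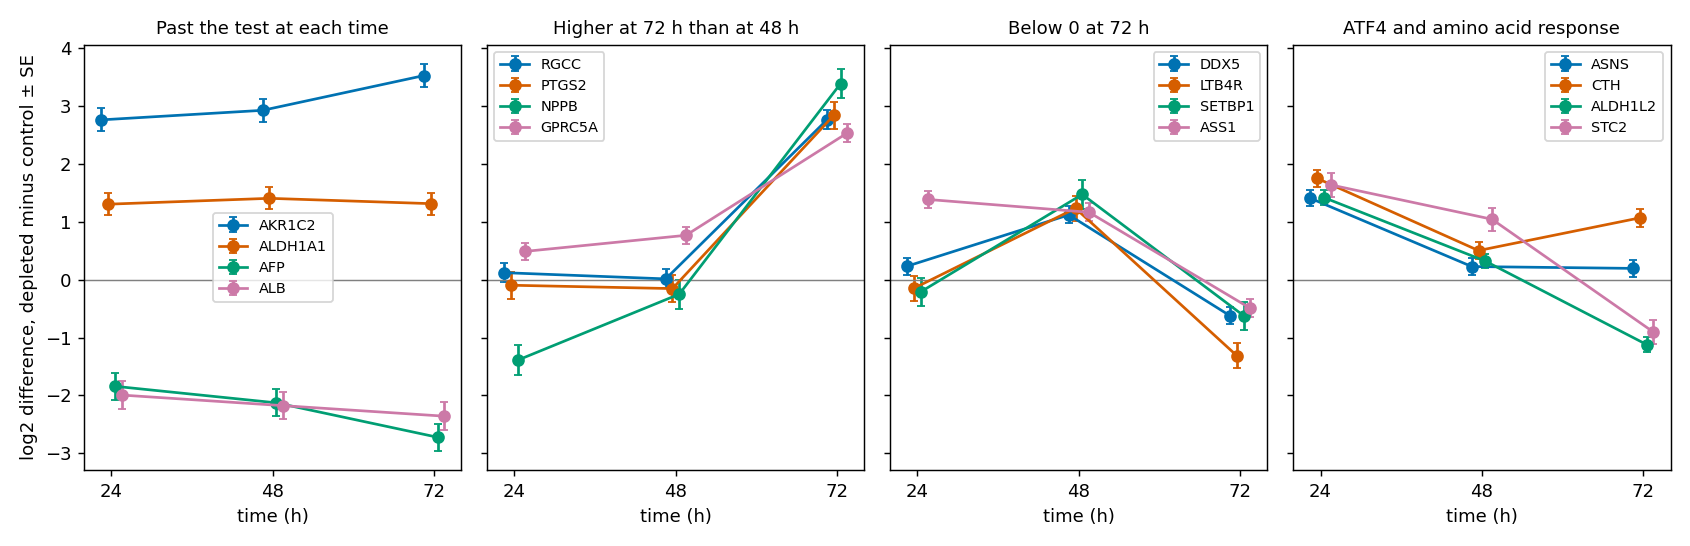
Depletion differences at 24, 48 and 72 h (log2(signal + 16) scale, mean of 3 pairs with SE from limma) for 16 genes in 4 panels, points shifted sideways to keep them apart. AKR1C2, ALDH1A1, AFP and ALB were past the test at each time, RGCC, PTGS2, NPPB and GPRC5A were far higher at 72 h, DDX5, LTB4R, SETBP1 and ASS1 were above 0 at 48 h and below 0 at 72 h, and ASNS, CTH, ALDH1L2 and STC2 had their highest value at 24 h.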

How the data were processed

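RNA of Caco-2 cells was hybridised to Affymetrix arrays with 54675 probe sets. The deposited values are MAS5 intensity signals on a linear scale, scaled by the authors so that every array has nearly the same trimmed mean, per the submitters' processing notes (which name MAS5, with no version) and the values. Probe sets whose mean log2(signal + 16) reached the median of the table were tested (27307, without 62 control probe sets), and 22946 of them had 1 gene symbol in the platform annotation. A gene was read from its brightest probe set of 1 symbol, 12319 genes in all. limma 3.58.1 in R 4.3.3 fitted 6 group means and the set as a fixed block to all 18 arrays (10 residual degrees of freedom), with Benjamini-Hochberg adjustment over all probe sets tested. The number of arrays limits the precision.

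The set comes from the running numbers in the titles, 6 arrays to a set. After removal of group means, arrays of a set correlated at 0.302 to 0.602 and each of the 18 arrays was most like an array of its own set. The 3 pairs at 48 h correlated at 0.393, 0.328 and 0.379, inside the range for all arrays of a set. The numbers therefore group the arrays into sets, and a closer tie between control and depleted arrays of the same time was not shown. The brightest probe set read 27380 to 31410 on arrays of set 2 and 6905 to 8575 on all others, and the cause was not tested.

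Genes named are the 15 largest rises and falls with groups that do not overlap, the leading genes of the contrasts between times, the members with the lowest p in each list (4 at most), and all riboflavin genes. ASS1, ATF3, CEACAM6, CYP1A1, EPCAM, GCLM, GPX2, LAMB1 and the genes listed as past the test without the set 2 pair were named after their values were seen. Members, lists and tests were chosen with earlier results of these data known. Lists are described by counts and medians. Scripts were tested on simulated data. Promoters are those of RefSeq (GRCh38.p14), read with Python 3.11.15 and aligned with Biopython 1.88. Alternatives covered the block, pseudocount, filter, scaling and arrays left out.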

Additional observations from a re-analysis of the deposited data

Results flagged for a closer look

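Of 207 genes chosen by the naming rule and 12 named besides, 42 had a depletion effect that differed between 48 h and 72 h by the limma contrast itself (adjusted p under 0.05 over all probe sets). The rule itself takes leading genes of that contrast, and the 12 were named after their values were seen. The 42 are therefore no measure of how common such differences were. Over all genes the contrast called 321 of 12319 (2.61%). Values are the 72 h effect minus the 48 h effect on the log2(signal + 16) scale. Higher at 72 h were NPPB by 3.64, PTGS2 by 2.99, RGCC by 2.75, CCN2 by 2.36, ANKRD1 by 2.32, EMP1 by 2.36, GPRC5A by 1.77, GCLM by 1.47, GADD45A by 1.30, ATF3 by 1.27, PLK2 by 1.25, CRIM1 by 1.20, GPX2 by 1.10, CEACAM6 by 1.09, IER3 by 1.06 and F3 by 1.04. So were the metallothioneins MT1H by 3.20 and MT1X by 2.23. Others with the higher value at 72 h were PLAAT2 at 2.87, MYL7 at 2.73, NR1D2 at 1.60, MMP1 at 1.48, VLDLR at 1.28, TXNRD1 at 1.13 and MPP7 at 1.01.

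Lower at 72 h were GAS2 (-2.58), LTB4R (-2.55), IYD (-2.12), PC (-2.10), SETBP1 (-2.09), FABP1 (-2.01), STC2 (-1.95), DDX5 (-1.74), ASS1 (-1.66), LAMA1 (-1.47), ALDH1L2 (-1.44), APOB (-1.40), HECW2-AS1 (-1.18), ZDHHC23 (-1.17), SCD5 (-1.09), CCEPR (-0.99) and ATP5MC1 (-0.94). The 48 h control of set 2 and its depleted partner differ in title suffix and in the ACTB ratio, and their part in these contrasts was not tested gene by gene.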

How the results depend on the processing

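The count of calls depended on the processing. At 48 h 144 probe sets rose and 45 fell in the reported fit. Without the replicate block, which ignores the pairing by set, 19 rose and 3 fell, and 46 differed between 72 h and 48 h. With the 48 h arrays alone it was 0 and 0, with pseudocount 64 217 and 140, with no filter 51 and 13, and with the filter at the 75th percentile 277 and 250 (52.6% of calls higher, against 76.2%). Leaving out 1 set or 1 array gave 0 to 111 higher and 0 to 25 lower. The alternatives added after seeing the data, without the 48 h pair of set 1, 2 or 3, gave 27, 21 and 13 higher and 8, 5 and 6 lower. The contrast of 72 h with 48 h (615) called 994 with pseudocount 64, 153 with no filter, 1087 with the stricter filter, 0 to 436 with 1 set or array left out, and 117, 235 and 194 without a 48 h pair. That of 48 h with 24 h (0) called 1 with pseudocount 64 and 6 with the stricter filter. That of 48 h with the mean of the other times (0) called 5 with a random block, 1 with pseudocount 1, 15 with pseudocount 64, 37 with the stricter filter, 3 with 75th percentile centring, 0 to 1 with 1 set or array left out, and 1 and 2 without the pair of set 2 or 3. Fewer probe sets or arrays enter several of these fits, and otherwise the cause was not tested. Of the 100 called genes 23 passed in all 6 fits without 1 array, 13 passed without the block, and 68 passed under both other scalings. None changed sign in any fit, but each had moved one way in all 3 pairs, so many of these fits could not change it. Weak signals and 3 pairs limit what can be called.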
